A study of Macaca fascicularis with 44 samples.

Results

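Brain endothelial cells (BECs) grown from the striatum were set against BECs grown from the cortex of cynomolgus monkeys, both after 7 days in culture, the stage called P0D7. The libraries were chosen by their labels, as the 7 named striatum and the 8 cortical libraries of the same stage, so that 15 of the 44 libraries of the series were compared. Microvessels had been isolated from each structure by enzymatic digestion, with the meninges and the cortical white matter removed, and plated in endothelial medium with puromycin, which was lowered and then withdrawn. The monkeys were male and female, and nothing in the sources used here ties a sex to a library. No treatment distinguished the groups, and all cells had passed through the puromycin selection. The series also holds P0D7 libraries of brainstem (6), hippocampus (7) and cerebellum (2), and cortical libraries of the freshly isolated microvessels (P0D0, 8) and of cells re-plated for a further 7 days (P1D7, 6).

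The endothelium of brain capillaries forms the blood–brain barrier. Its cells are sealed to one another by tight junctions, transcytose little, and carry efflux pumps and carriers that decide which solutes reach the nervous tissue. The striatum is a deep grey nucleus and the cortex the outer grey sheet of the forebrain, and the vessels of both are of the barrier type. Endothelial cells are known to lose part of this program once they are away from the neighbouring glia and pericytes. A comparison of P0D7 cells thus concerns the cells as they stand after isolation, selection and culture. The series holds no P0D0 library of striatum, so a retained difference cannot be told apart from one acquired in culture. The question was whether BECs of the striatum and of the cortex differ once they are grown under the same conditions.

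The total count of read pairs per library was 14455911 to 20474856 in striatum (median 17830212) and 15513781 to 23138726 in cortex (median 19777693.5). The count was lower in striatum in 5 of 7 pairs, and the mean log2 ratio of striatum over cortex, -0.15 ± 0.29 (SD, n = 7 pairs), did not pass an exact two-sided sign-flip permutation test (p = 0.219, smallest possible 0.0156). Genes with at least 1 FPKM (fragments counted, corrected for gene length and for library size) numbered 11131 ± 96.9 in striatum (SD, n = 7) and 11136 ± 84.2 in cortex (SD, n = 8), a mean difference within pairs of -3.14 ± 96.5 genes (SD, n = 7; p = 0.953 by the same exact permutation test). Each label carries a code, BBB followed by a number, which is read here as a preparation. Codes 027, 028, 029, 031, 032, 035 and 036 have a library of each structure and form 7 pairs, and code 030 has cortex only. Cortical libraries of all stages are numbered in a series of their own and striatum in another, so a step of handling that followed this numbering cannot be told apart from the structure.

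Genes carry Ensembl identifiers in these files, and none of the 28623 was given a symbol here, since the reference table used holds no Ensembl identifier. The endothelial identity of the cells was therefore not checked against marker genes, and no role is given for any identifier below. Of the identifiers, 11789 had at least 1 FPKM in 3 or more of the 15 libraries and were tested. At the edge of this filter, 164 genes reached 1 FPKM in exactly 3 libraries (median of their mean levels 0.69 FPKM) and were kept, and 233 reached it in exactly 2 (median 0.56 FPKM) and were not. A total of 10062 genes reached it in all 15.

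Few genes passed the test between BECs of the striatum and of the cortex. With the code as a block, so that each striatum library was set against the cortical library of its own preparation, 5 of 11789 genes were differentially expressed (0.0424%), 2 higher (0.017%) and 3 lower (0.0254%) in striatum. A call asked for both a 1.5-fold difference or more and an adjusted p of 0.05 or less in edgeR's quasi-likelihood test with Benjamini-Hochberg adjustment. The fifth gene stood at an adjusted p of 0.0359 in that test and the sixth at 0.0598, a value shared by 11 genes. Relaxing the adjusted p to 0.1 gave 55 genes (0.467%), 23 higher (0.195%) and 32 lower (0.271%). An unadjusted p under 0.05 was reached by 1751 genes (14.9%), 814 higher (6.9%) and 937 lower (7.95%) in striatum. DESeq2 with the same block called 300 genes, 102 higher and 198 lower, and the edgeR fit of all 30 P0D7 libraries with the block called 250, 107 higher and 143 lower, so the number of genes depended strongly on the tool and on the libraries in the fit. All 5 genes were among those called by each of these 2 fits. Leaving out 1 library at a time, which keeps 6 pairs, gave 0 to 2 genes, except that 5 were called without the unpaired cortical library of code 030. Of the 5, ENSMFAG00000037799 was still called without either library of codes 027, 029 or 035, and ENSMFAG00000044943 without either of 035. Only ENSMFAG00000046278 and ENSMFAG00000028174 reached 1 FPKM in libraries of both structures. The other called genes passed the filter through 1 structure alone, so their direction was fixed by it. All of these fits used the same filtered genes, so they give no separate support for those directions.

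**Figure D1:**
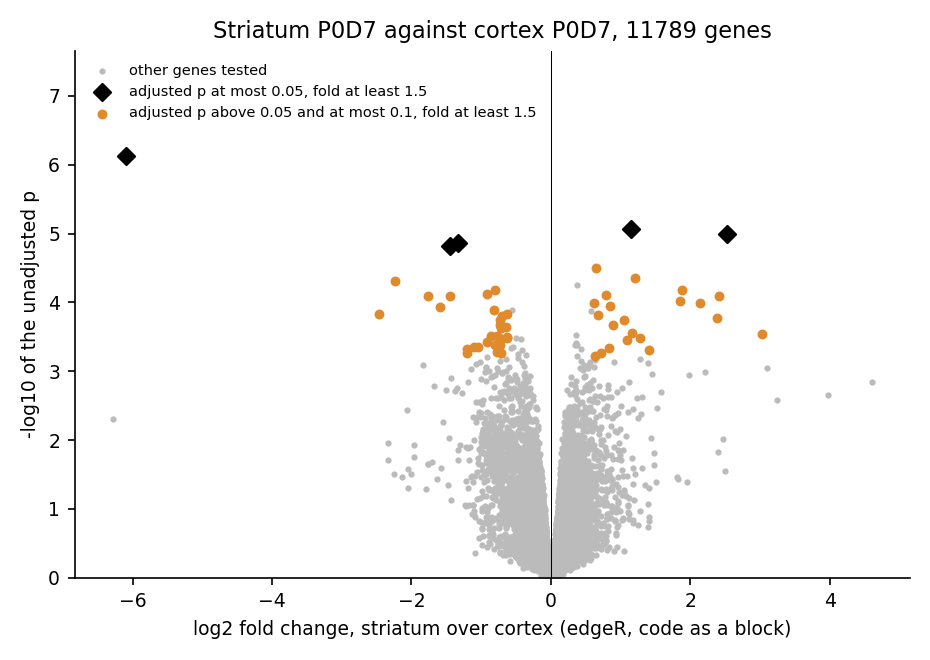
Fitted log2 fold change of striatum over cortex (horizontal axis) against -log10 of the unadjusted p (vertical axis) for the 11789 genes tested in edgeR with the code as a block. Black diamonds are the 5 genes called. Orange points are the further genes at an adjusted p of at most 0.1 with a fold of at least 1.5. Grey points are all others. The median fold change is close to 0, which the scaling of the libraries favours.

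The distribution of fold changes was narrow. Its centre near 0 follows largely from the scaling of libraries to a common level, so it does not speak to a general shift. The median fitted log2 fold change of striatum over cortex was 0.0028, and its 5th and 95th percentiles were -0.54 and 0.44. A fitted change of at least 2-fold was found for 81 genes higher and 90 lower in striatum, and of at least 1.5-fold for 312 higher and 521 lower, whether or not they passed the test. In log2 CPM (counts scaled to a common library size), 315 genes (2.67%) were higher and 347 (2.94%) lower in striatum in all 7 pairs. The 2 groups did not overlap in 3 genes (0.0254%) that were higher and 17 (0.144%) that were lower in striatum.

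ENSMFAG00000046278 was the most abundant of the 5 genes and was higher in striatum. Its level was 107, 166, 143, 152, 56.0, 93.3 and 71.9 FPKM in the striatum libraries of codes 027, 028, 029, 031, 032, 035 and 036. In cortex it was 51.6, 66.8, 55.3, 63.3, 37.5, 57.6 and 41.8 FPKM in the same codes, and 97.3 FPKM in code 030. Striatum exceeded cortex in every code, although the ranges of the groups overlapped. Code 028 was highest and code 032 lowest among the paired libraries of either structure. The log2 fold change was 1.15 ± 0.13 (SE; adjusted p = 0.0359, edgeR's quasi-likelihood test), and the within-code log2 differences ran from 0.75 to 1.58.

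ENSMFAG00000044943 was also called higher in striatum, at a low level. Striatum libraries held 0.87 to 5.14 FPKM (median 1.03) and cortical libraries 0.13 to 0.89 FPKM (median 0.29), and the ranges met only at 0.87 to 0.89 FPKM, where the cortical library of code 030 lay above the lowest striatum library. In counts, striatum had 23 to 187 per library and cortex 4 to 29. The gene reached 1 FPKM in 4 striatum libraries and in 0 of cortex, and thus passed the filter through striatum alone, so that its direction was fixed by the filter. The log2 fold change of 2.53 ± 0.28 (SE; adjusted p = 0.0359, edgeR's quasi-likelihood test) is therefore given as a description. The 3 striatum libraries with the highest levels, of codes 027, 032 and 035, were not those highest for ENSMFAG00000046278. This identifier did not meet the level of 10 FPKM asked of named genes and is named after its values were seen.

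**Figure D2:**
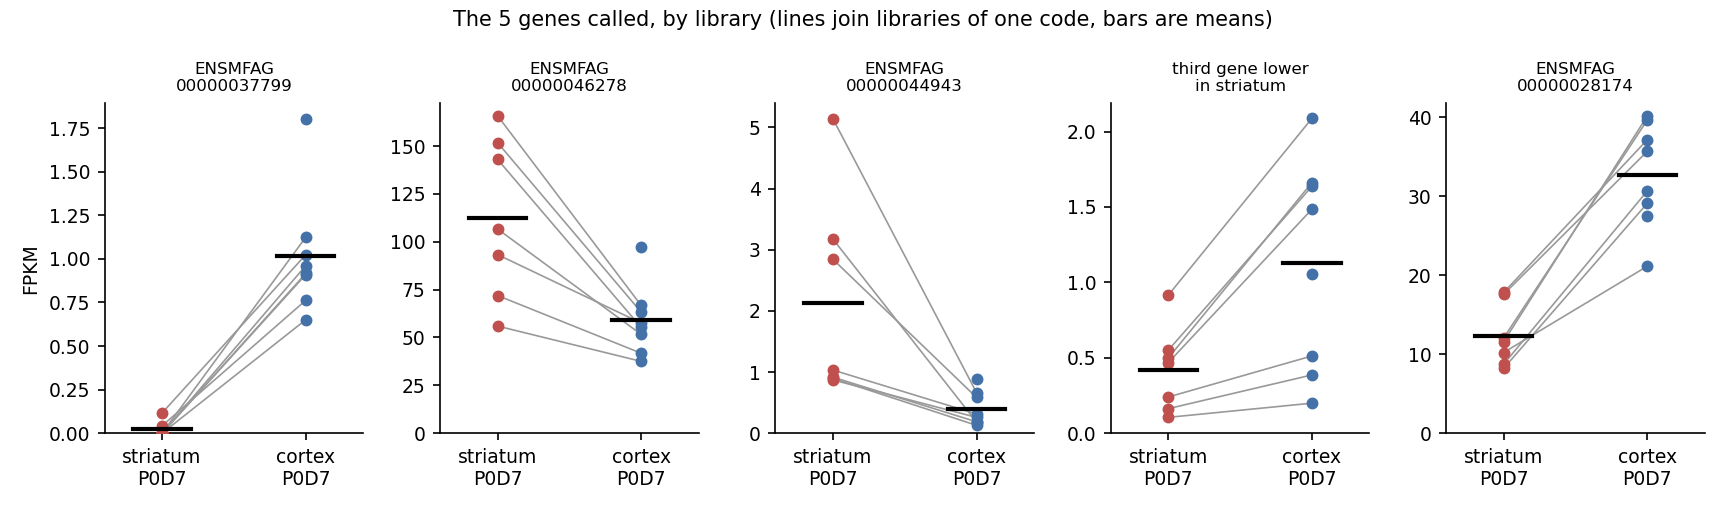
Level in FPKM (vertical axes, each from 0) of the 5 genes called, in the 7 striatum P0D7 libraries (left, red) and the 8 cortex P0D7 libraries (right, blue). Grey lines join libraries of the same code and black bars are means; every line slopes the same way within a panel, and in 2 of the 5 panels no striatum library reaches the range of cortex.

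ENSMFAG00000028174 was lower in striatum, with no overlap between the groups. It stood at 11.6, 17.8, 17.6, 8.20, 10.2, 12.0 and 8.72 FPKM in striatum, in the order of codes given above. Its level in cortex was 40.1, 37.1, 35.7, 29.1, 21.1, 39.6 and 30.7 FPKM in the same codes and 27.5 FPKM in code 030. The lowest cortical library thus stood above the highest striatum library. The log2 fold change was -1.45 ± 0.17 (SE; adjusted p = 0.0359, edgeR's quasi-likelihood test), a 2.72-fold lower level. The counts behind it were modest, 16 to 46 per striatum library and 66 to 108 per cortical library, since the gene is short. The length that joins its counts to its FPKM was 135 bases, against a median of 2404 bases over all genes tested.

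ENSMFAG00000037799 carried the smallest adjusted p and was nearly undetected in striatum. Its counts were 0, 0, 1, 0, 0, 2 and 0 in the striatum libraries and 44, 47, 38, 37, 34, 36 and 44 in the cortical libraries of the same codes, with 75 in code 030. Cortex held 0.65 to 1.80 FPKM and striatum at most 0.12 FPKM, so the groups did not overlap. The gene passed the filter only because 3 cortical libraries reached 1 FPKM, so that it had to be lower in striatum. Set against the total counts of the groups, 3 counts in striatum and 355 in cortex gave a level 93.9-fold higher in cortex, with a 95% exact (Clopper-Pearson) interval of 31.9 to 457 that covers counting error only. The fitted log2 fold change of -6.10 ± 0.50 (SE; adjusted p = 0.0088, edgeR's quasi-likelihood test) is therefore given as a description, and it depends on the prior count. This identifier too fell below the level asked of named genes and is named after its values were seen.

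The third gene that was lower in striatum is described without its identifier. It stood at 0.1 to 0.92 FPKM in striatum (median 0.47) and at 0.2 to 2.09 FPKM in cortex (median 1.27), and the groups overlapped. Its level in FPKM varied several-fold among the preparations, with code 032 highest and code 035 lowest in both structures. In log2 CPM the highest striatum library was that of code 028, at 1.83 against 1.65 in code 032. It passed the filter through cortex alone, where 5 libraries reached 1 FPKM against 0 of striatum, so that its direction too was fixed by the filter. As a description, the within-code log2 differences ran from -1.84 to -0.86, and the log2 fold change was -1.34 ± 0.16 (SE; adjusted p = 0.0359, edgeR's quasi-likelihood test).

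The cortical fractions placed ENSMFAG00000037799 among genes that were abundant before culture. In P0D0 it stood at 165 to 2212 FPKM (median 870.2, n = 8), and in P1D7 at 0.67 to 1.01 FPKM (n = 6), with 26 to 41 counts in every P1D7 library. Its mean CPM in P0D0 was 943 times that in cortex P0D7 and 1250 times that in P1D7. Of 2072 genes with a mean of at least 100 CPM in P0D0, 23 had at most 3 counts summed over the 7 striatum libraries, and this gene was the most abundant of them. All 23 were detected in cultured cortex, with 15 to 355 counts over the 8 P0D7 libraries and 5 to 195 over the 6 P1D7 libraries.

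In cultured cortex these 23 genes stood in a narrow range of proportion to their level in fresh microvessels. Their mean CPM in P0D0 was 575 to 1386 times that in cortex P0D7 (median 944), whereas over the 2072 genes the 5th and 95th percentiles of the same ratio were 0.343 and 120. Against P1D7 the ratio of the 23 genes was 751 to 2671 (median 1110). In the other structures most of the 23 had at most 3 counts over the group, 18 in brainstem, 18 in hippocampus and 23 in cerebellum. The 23 genes were chosen for a high level in P0D0 and for low counts in striatum, a culture much like that of cortex, so a high ratio of P0D0 to cultured cortex is in part a result of the choice. Only 1 of them, ENSMFAG00000037799, was among the genes tested. Whether these counts came from the cultured cells or from P0D0 material was not tested. For the other 4 genes called, the ratio of P0D0 to cortex P0D7 was 1.75 to 4.12, far from that of the 23.

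**Figure D3:**
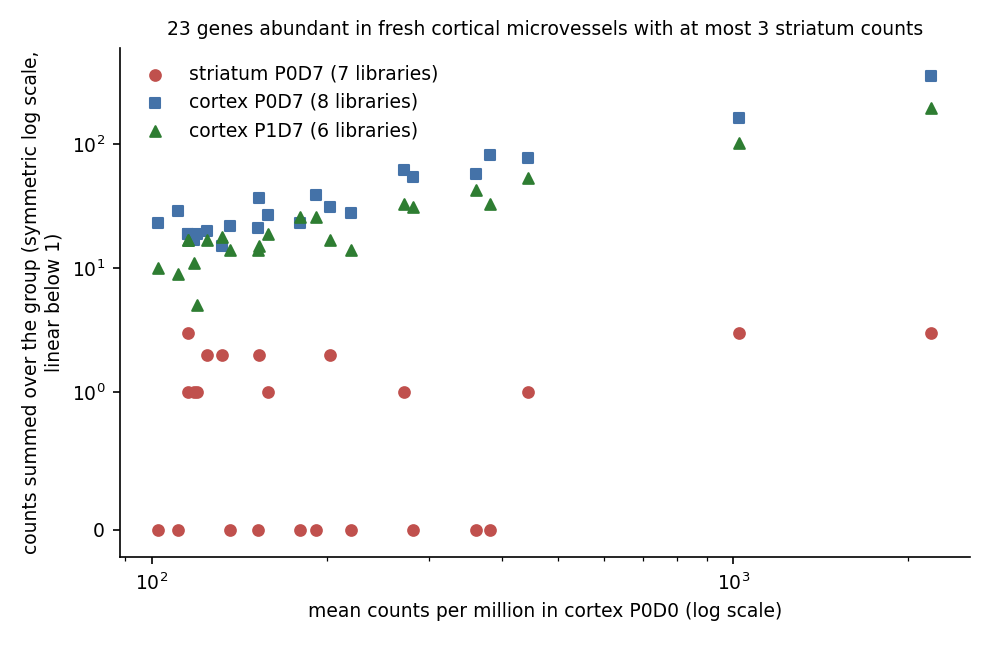
Counts summed over the 7 striatum P0D7 libraries (red circles), the 8 cortex P0D7 libraries (blue squares) and the 6 cortex P1D7 libraries (green triangles), on a symmetric log axis that is linear below 1, against mean CPM in cortex P0D0 on a log axis. Each of the 23 genes gives one point per group; the cultured cortical counts follow the P0D0 level, up to 355 and 195 counts, and the striatum counts stay at 0 to 3 by choice of the genes.

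Most of the very short genes, of which ENSMFAG00000028174 is one, had a lower fitted level in striatum. An implied length was computed for each gene from its counts, its FPKM and the total count, and classes of length were set after the values were seen. The implied length is not fixed for a gene, since for 3093 of the 11789 genes it differed by over 1% between the medians of the groups. Among the 94 tested genes under 150 bases (median 133 bases), the median log2 fold change was -0.73, with 84 lower and 10 higher in striatum, whereas over all genes tested it was 0.0028. Of the 94, 1 was called lower, 6 were lower at an adjusted p of at most 0.1 and 0 were higher, and 6 had every striatum library below every cortical one. Over all 11789 genes tested, the share called lower was 0.0254%. The share lower at an adjusted p of at most 0.1 was 0.271%, and that with every striatum library below every cortical one was 0.144%. From 150 to 300 bases the median was -0.03 (267 genes). From 300 to 500 bases it was -0.09 (347 genes), with 7 genes lower at an adjusted p of at most 0.1. In that class 3 genes had every striatum library below every cortical one. From 2000 to 4000 bases the median was 0.01 (4522 genes). From 4000 to 8000 bases it was 0.03, with 1350 genes higher and 1001 lower in striatum. Over 8000 bases it was 0.05, with 135 higher and 87 lower. In both of these longest classes the medians of codes 027 and 035 were below 0.

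The median of the short genes was below 0 in each preparation. The median within-code log2 difference of the 94 genes was -0.25, -1.06, -0.24, -0.60, -0.42, -0.70 and -0.51 in codes 027, 028, 029, 031, 032, 035 and 036. Together these genes took 51.6 to 89.1 CPM in striatum (median 60.4) and 81.4 to 178 in cortex (median 101), and the groups overlapped in the range from 81.4 to 89.1. Their sum was 43.5 to 74.5 CPM in brainstem, 52.2 to 86.2 in hippocampus, and 49.7 and 62.6 in the cerebellum libraries. In cortical P1D7 libraries it was 107 to 162 CPM, and in P0D0 269 to 562 CPM. Every cortical library, of any stage, thus stood above the median of each other structure, and structure and library numbering cannot be told apart in this.

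**Figure D4:**
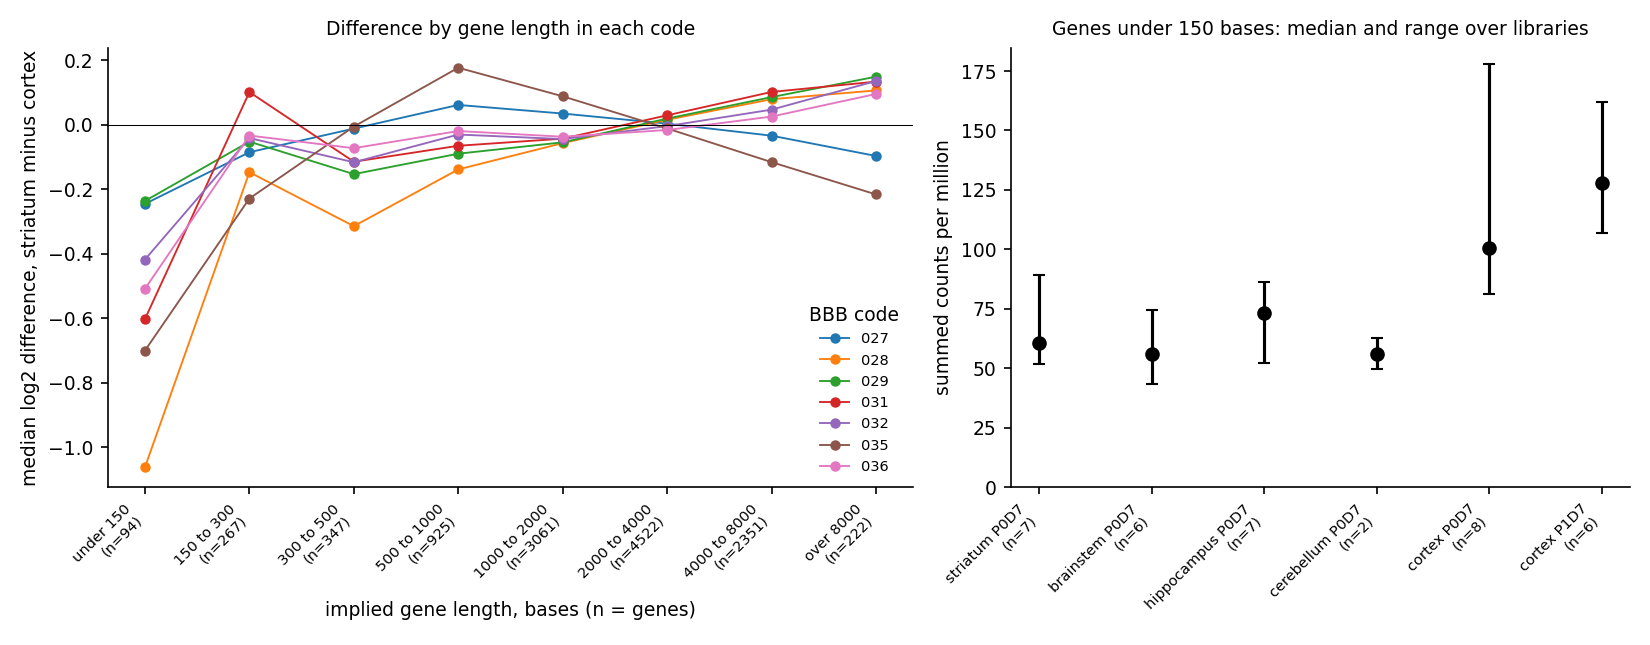
Left, median log2 difference of striatum minus cortex in each code (coloured lines) for genes grouped by implied length in bases (horizontal axis, n = genes). Right, summed CPM of the 94 genes under 150 bases in each group (points are medians and bars the range over libraries); all 7 codes lie below 0 in the shortest class, and the striatum median is 60.4 against 101 in cortex P0D7.

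The other structures were given side by side, although their contrasts share the cortical libraries. In the fit of the 30 P0D7 libraries, ENSMFAG00000028174 was lower than in cortex by a log2 fold change of -1.40 in striatum, -1.68 in brainstem, -1.47 in hippocampus and -2.42 in cerebellum. Its mean level was 10.3 FPKM in brainstem, 12.1 FPKM in hippocampus and 6.79 FPKM in cerebellum, against 12.3 FPKM in striatum, while cortex held 32.6 FPKM at P0D7, 34.5 FPKM at P1D7 and 85.7 FPKM at P0D0. ENSMFAG00000046278 was higher than in cortex by 1.20 in striatum, 1.66 in brainstem and 0.78 in hippocampus, and by 0.73 in cerebellum, where it did not pass the test (adjusted p = 0.236, edgeR's quasi-likelihood test). For ENSMFAG00000044943 the log2 fold changes were 2.60, 2.87 and 2.61 in striatum, brainstem and hippocampus, and 1.07 in cerebellum (adjusted p = 0.386, edgeR's quasi-likelihood test). In re-plated cortical cells (P1D7) ENSMFAG00000046278 stood at 34.2 ± 11.8 FPKM (SD, n = 6), against 58.9 ± 18.4 FPKM in cortex P0D7 (SD, n = 8), a difference not tested here.

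More genes were called between striatum and cortex than between striatum and the structures numbered with it. In the same 30-library fit, 250 of 11789 genes (2.12%) were called between striatum and cortex, 382 (3.24%) between brainstem and cortex, 306 (2.6%) between hippocampus and cortex and 276 (2.34%) between cerebellum and cortex. An unadjusted p under 0.05 was reached in this fit by 2847 of 11789 genes between striatum and cortex. Between striatum and brainstem edgeR called 0 genes, with 455 (3.86%) at an unadjusted p under 0.05. Between striatum and hippocampus it called 1 gene (0.00848%), with 2233 (18.9%) at an unadjusted p under 0.05. No other tool was run on these 2 contrasts, which rest on 5 and 6 codes in common. The 55 genes that parted striatum from cortex at an adjusted p of at most 0.1 had a median log2 difference between striatum and brainstem of -0.11 for the 23 that were higher and -0.05 for the 32 that were lower, and 0 of them were called there. Against cortex, the 32 lower genes had a median of -0.81 in striatum, -0.77 in brainstem and -0.68 in hippocampus. The 23 higher genes had a median of 1.15 in striatum, 1.07 in brainstem and 0.93 in hippocampus, all relative to the same cortical libraries. These striatum medians came from the fit of striatum and cortex libraries alone, and those of brainstem and hippocampus from the 30-library fit. The 55 genes were chosen by the former fit, so the striatum medians are not directly comparable with those of brainstem and hippocampus.

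The level of these 55 genes was moderate. The 23 higher genes had a median of 9.97 FPKM in striatum and 4.74 FPKM in cortex, and the 32 lower genes 4.52 FPKM in striatum and 9.50 FPKM in cortex, against 12.1 FPKM in each structure over all genes tested. Their fitted log2 changes ran in size from 0.62 to 3.03 among the higher and from 0.62 to 6.10 among the lower genes. All 55 had the same direction in 7 of 7 pairs, which the choice by a test within codes favours (2.67% of all genes were higher and 2.94% lower in 7 of 7 pairs). The groups were without overlap in 1 of the 23 and 11 of the 32. Over all genes tested, 0.0254% were higher and 0.144% lower in striatum without overlap. The choice of the 55 by a test on these same libraries favours a lack of overlap too. In re-plated cortical cells (P1D7), 21 of the 23 higher genes lay nearer to cortex P0D7 than to striatum, as did 16 of the 32 lower genes, against 4784 of all 11789 genes. The 55 were chosen for a gap between striatum and cortex P0D7 and all genes were not, so these shares are not directly comparable. The median log2 difference of P1D7 minus cortex P0D7 was -0.60 for the 23 and -0.43 for the 32.

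Libraries of a code were on average more alike than libraries of a structure, and the difference between striatum and cortex was not the same in each code. Across genes, the mean Pearson's r of log2 CPM was 0.971 for striatum with cortex of the same code (7 pairs), 0.951 for striatum with cortex of different codes (49 pairs), 0.957 among striatum libraries (21 pairs) and 0.954 among cortical libraries (28 pairs). Deviations from the group means correlated between same-code libraries at 0.32, 0.62, 0.28, 0.29, 0.77, 0.11 and 0.77 in codes 027, 028, 029, 031, 032, 035 and 036. Between different codes they correlated at -0.064 on average, with a range of -0.54 to 0.45 that holds the values of 027, 029, 031 and 035. The single most similar library had the same code for 7 of the 14 libraries with a partner. It was of the same structure for 2 of the 7 striatum libraries and for 5 of the 8 cortical libraries. The biological coefficient of variation, the spread between replicates beyond sampling noise, was 22.0% with the block and 30.9% without it.

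Within codes, the striatum and cortical libraries lay furthest apart in 029 and 031. The share of genes at least 1.5-fold apart was 13.1% in code 027, 17.5% in 028, 27.3% in 029, 30.2% in 031, 12.4% in 032, 22.0% in 035 and 12.1% in 036. These values include the sampling noise of single libraries. They stand beside a median difference of about 0 in each code, from -0.01 to 0.02, which the scaling of the libraries favours.

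The changes of codes 027 and 035 ran against those of 028, 029, 031 and 032. Across the 11789 genes, the striatum minus cortex differences of 027 and 035 correlated with each other at r = 0.66, and with those of 028, 029, 031 and 032 at -0.43 to -0.15. The last 4 correlated with one another at 0.38 to 0.67, and code 036 correlated positively with all others, at 0.10 to 0.46. Among the 6592 genes with a mean of at least 10 FPKM, r was 0.80 between 027 and 035 and 0.82 between 029 and 032, and -0.57 between 029 and 035. These correlations are across genes of single pairs of libraries, share no library and are given as a description.

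**Figure D5:**
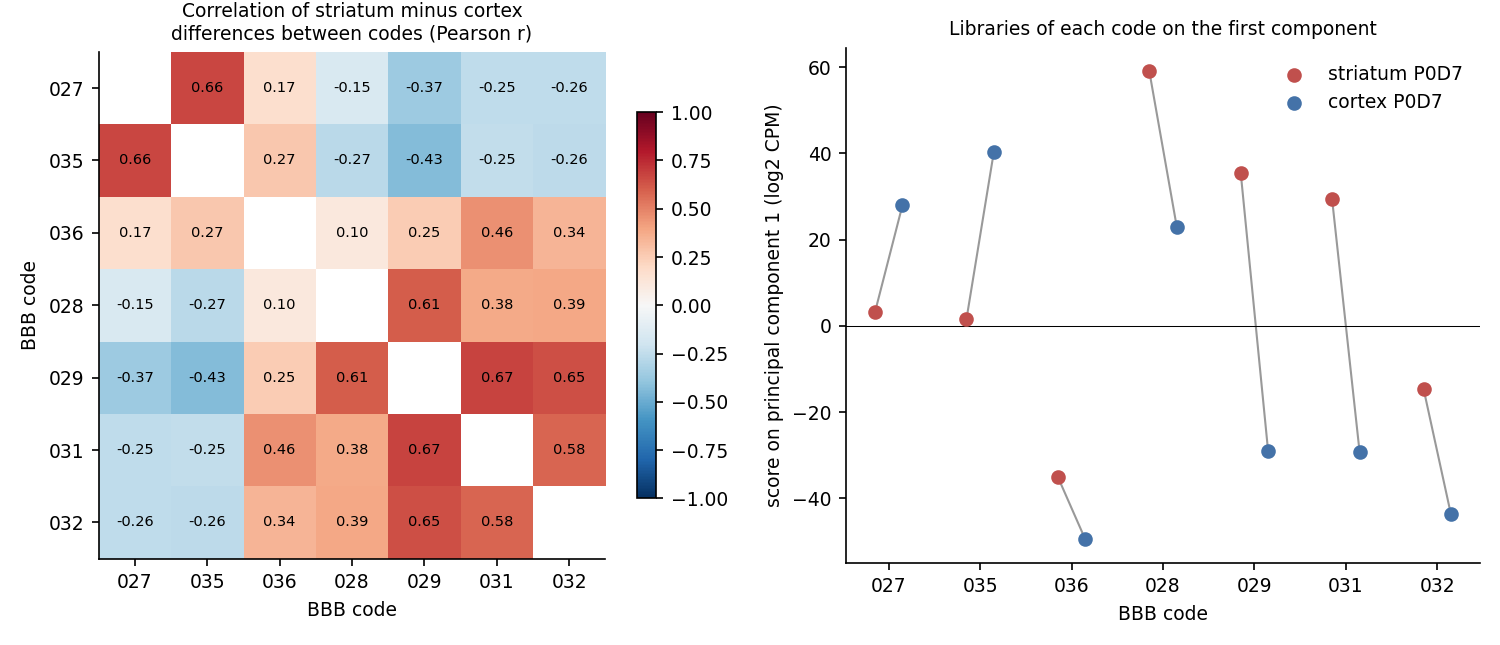
Left, Pearson's r across 11789 genes between the striatum minus cortex log2 CPM differences of 2 codes, from blue (-1) to red (1), with the codes ordered for display after the values were seen. Right, score of the striatum (red) and the cortex library (blue) of each code on the first principal component of log2 CPM; striatum lies below cortex in codes 027 and 035 and above it in the other 5.

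The first principal component showed the same reversal. It held 37.6% of the variance of the 15 libraries, and the structures overlapped on it, with striatum at -35.0 to 59.1 and cortex at -49.5 to 40.4. The striatum minus cortex difference in score was -24.7 in code 027 and -38.8 in code 035, and was 36.02, 64.6, 58.4, 29.1 and 14.5 in codes 028, 029, 031, 032 and 036. Depth moved with it. The total count of striatum was 1.21 and 1.19 times that of cortex in codes 027 and 035, and 0.73, 0.89, 0.82, 0.75 and 0.84 times in codes 028, 029, 031, 032 and 036, so that in 7 of 7 codes the deeper library was the lower one on the component. The relation of differences to gene length turned as well, since genes over 8000 bases had a median below 0 in codes 027 and 035 and above 0 in the other 5. The part of depth in this component was not tested.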

How the data were processed

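Libraries were grouped by structure and stage from their labels, and by the BBB code in them. The authors removed ribosomal, short and low-quality reads, aligned the rest with the Omicsoft Sequence Aligner to the cynomolgus genome and made counts per gene of the Ensembl model in ArrayStudio. The deposited estimated counts are not normalized (1.45% of values are not whole), and the deposited FPKM values are scaled to gene length and total count. After rounding, the test was edgeR 4.0.16 under R 4.3.3 (TMM, estimateDisp, glmQLFit with its default, older form, glmQLFTest) with the code as a block over the 15 libraries. FPKM served for the filter, levels and an alternative. The codes were taken as pairs because the deviations of all 7 pairs correlated over 0.1 (0.11 to 0.77). Deviations between different codes correlated at -0.54 to 0.45, so passing this limit does not by itself set a true pair apart. No source used here says that a code is 1 animal. The series holds 10 codes, more than the animals whose housing the authors count, so codes may share an animal. A p-value of the main test or of the exact permutation tests speaks of how the striatum minus cortex difference varied between codes. That variation may be technical. Log2 CPM used a prior count of 2, and intervals and sums cover counting error only, since read pairs carry no molecular identifiers.

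Named genes were to be the 2 identifiers with the largest fold in each direction among called genes with at least 10 FPKM in the higher group and one sign in 7 of 7 pairs. One met this in each direction, ENSMFAG00000046278 and ENSMFAG00000028174, and at most 2 identifiers a direction are printed. Of the 28623 identifiers, 0 matched a reference table of 40596 genes, so the gene lists and cell type markers were not run. The comparison and the lists were chosen with earlier results of these data known. Alternatives were DESeq2 1.42.0, limma 3.58.1, other size factors, filters, thresholds and libraries. The test was checked on simulated data.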

Additional observations from a re-analysis of the deposited data

Results flagged for a closer look

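ENSMFAG00000037799 stood apart in 1 library of each structure, by a gap to the next library that was large for the range of the group. In striatum replicate 6 (code 035) it had 0.116 FPKM, from 2 counts, against 0 to 0.0423 FPKM in the other 6 striatum libraries. In cortex replicate 4 (code 030, with no striatum partner) it had 1.80 FPKM, against 0.65 to 1.12 FPKM in the other 7 cortical libraries. The summed counts of the 94 genes under 150 bases were 178 CPM in cortex replicate 2 (code 028), against 81.4 to 121 CPM in the other cortical libraries. A total of 26 sets of values were examined in this way, and chance flags about 1 in 20. Whether that rate holds for counts as low as those of ENSMFAG00000037799 in striatum was not tested.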

How the results depend on the processing

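The code as a replicate block changed which genes edgeR called and, in DESeq2, how many. With no replicate block edgeR called 6 genes, 0 higher and 6 lower, of which 2 were among the 5 called with it, and ENSMFAG00000046278, ENSMFAG00000044943 and the third lower gene had adjusted p of 0.169, 0.159 and 0.555 there. DESeq2 called 300 genes with the block (102 higher, 198 lower) and 39 without it (20 higher, 19 lower). With the block, limma-voom called 8 genes, and limma called 17 on log2(FPKM + 1) and 17 on log2(FPKM + 0.1). On log2(FPKM + 1) ENSMFAG00000044943 did not pass (adjusted p = 0.0762), and the third lower gene passed on neither FPKM scale (0.139 and 0.108). Without the FPKM filter 25 genes were called, with 1 FPKM in all 15 libraries 2, with filterByExpr 11, and with the 30 P0D7 libraries fitted together 250. The settings added after the data were seen gave 18 genes with edgeR's newer quasi-likelihood fit (9 higher, 9 lower), 55 at an adjusted p of at most 0.1, and 4 without genes at least 100 times higher in cortex P0D0. Other size factors, other fold thresholds, robust estimation and leaving out the 20 most abundant identifiers gave 5 or 6 genes. No setting turned the direction of any of the 5 genes. The filter, with which the 5 were chosen, had fixed the direction for all but ENSMFAG00000046278 and ENSMFAG00000028174. The fit without the filter used the same libraries, so it gives no separate support for those directions.

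Leaving out 1 library at a time gave 0 to 5 genes called. Without cortex replicate 4 (code 030) it was 5. Without either library of code 035 it was 2, without either of 027 or of 029 it was 1, and without either library of 028, 031, 032 or 036 it was 0, with 1162 to 1562 genes at an unadjusted p under 0.05. The fit then keeps 6 pairs. The log2 fold change of ENSMFAG00000046278 was 1.08 to 1.22 over these fits, that of ENSMFAG00000044943 2.30 to 2.67, that of ENSMFAG00000028174 -1.53 to -1.38, that of ENSMFAG00000037799 -6.98 to -5.81 and that of the third lower gene -1.42 to -1.23. The differences in total count (-0.22 to -0.10 on the log2 scale) and in genes detected (-22.5 to 22.7, and -27.9 and -2.71 at limits of 0.5 and 2 FPKM) passed the exact permutation test in none of these settings. The gene lists and their alternatives were not run.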
